A study of Mus musculus with 20 samples.

Results

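Antibody against PD1, given alone, was compared with control antibody in mice that bore kidney tumours of the MSRT1 cell line. The comparison takes its libraries by the group names in the column headers of the deposited table and holds 10 of the 20 libraries of the series. The 5 Veh_PD1 tumours came from mice given vehicle with the PD1 antibody, and the 5 Veh_IgG tumours from mice given vehicle with control IgG. The other 10 libraries came from mice given GYY4137, a slow-releasing sulfide donor, in place of vehicle, and were used here only for the filter on low values and for an alternative fit. Every tumour derives from the same line, which the labels call renal medullary carcinoma. Dose, schedule, mouse strain, age and tumour response are not given in the sources used here. Total RNA was sequenced in bulk from whole tumours, so tumour cells and host cells were measured together. Values below are listed in the order of replicates 1 to 5.

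PD1 is an inhibitory receptor of activated T cells, and its ligand PD-L1, the product of Cd274, is carried by tumour and myeloid cells. Blocking the pair releases T cells that already recognise the tumour, and such cells secrete interferon gamma. Interferon gamma acts on tumour, myeloid and stromal cells, where it induces the chemokine Cxcl9, guanylate-binding proteins, immunity-related GTPases, both classes of MHC molecules and PD-L1 itself. Renal medullary carcinoma is a rare kidney cancer that typically has lost the SWI/SNF chromatin remodelling subunit SMARCB1.

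The 2 groups differed in what their libraries held. Models that resemble major satellite, the tandem repeat of mouse pericentromeres, took 59.6%, 1.63%, 12.6%, 40.7% and 47.7% of all TPM in the Veh_PD1 libraries, against 4.02%, 9.48%, 3.53%, 13.2% and 5.16% in the Veh_IgG libraries (two-sided exact permutation p = 0.0952, and 0.0317 without Veh_PD1 replicate 2). Nuclear protein-coding genes took 11.2%, 34.9%, 28.8%, 15.7% and 11.8% in Veh_PD1, against 43.0%, 28.1%, 31.9%, 29.4% and 37.2% in Veh_IgG (exact permutation p = 0.0635, and 0.0317 without Veh_PD1 replicate 2). All levels below are therefore TPM rescaled so that nuclear protein-coding genes, without the satellite-like models and the olfactory and vomeronasal receptors, sum to 1000000 in each library, called rescaled TPM, and differences are of log2(rescaled TPM + 1). The left-out receptor genes, which serve as a measure of background, averaged 1.07, 0.0643, 0.166, 0.278 and 0.366 rescaled TPM in Veh_PD1, against 0.0438 to 0.187 in Veh_IgG. Low values of Veh_PD1 replicate 1 thus stand on a higher floor than those of any other library. Sequencing depth cannot be read from TPM. The part of the satellite-like and coding shares in the differences below was not tested. Median differences of the lists are therefore also given for the libraries under 20% satellite-like TPM, which were Veh_PD1 replicates 2 and 3 and the 5 Veh_IgG libraries.

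No gene met an adjusted p under 0.05 between the 2 groups in limma over 11834 protein-coding genes, 0% of those tested, and the smallest adjusted p was 0.883. At an unadjusted p under 0.05 there were 575 genes, of which 225 (1.90%) were higher in Veh_PD1 and 350 (2.96%) were lower. The mean was higher in Veh_PD1 for 4756 genes (40.2%) and lower for 7078 (59.8%). With each library's median subtracted in place of the rescaling, limma also called no gene, and the unadjusted counts were 343 higher and 199 lower. On deposited TPM without rescaling 54 genes were called, 14 higher and 40 lower, with the median of all tested genes shifted by -0.77. The middle 90% of differences ran from -0.35 to 0.40 on the log2 scale around a median of -0.05. All 5 Veh_PD1 tumours lay above all 5 Veh_IgG tumours for 28 genes (0.237%) and below them for 56 genes (0.473%). Every group and gene named below therefore failed the correction, and its values are a description of these 10 tumours.

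The genes with the smallest p among those higher in Veh_PD1 were Ccdc163, Klk1b1, Crem, Upk3bl, Gon7, Atf3, Art3, Atat1, Stfa2l1 and P4ha1, with log2 differences between 0.32 and 2.03. Ccdc163, which encodes a coiled-coil protein, was at 35.9, 33.1, 35.3, 37.9 and 33.2 rescaled TPM in Veh_PD1, against 18.9, 24.4, 21.99, 25.8 and 20.6 in Veh_IgG. The 5 treated tumours lay close together and all above the controls, with a log2 difference of 0.64 (SE 0.11). P4ha1, a prolyl hydroxylase that collagen folding needs and that hypoxia induces, was at 127, 131, 121, 138 and 122 in Veh_PD1, against 99.5, 105, 93.2, 116 and 98.2 in Veh_IgG. These groups also did not overlap, and the log2 difference was 0.32 (SE 0.09). Atat1, the tubulin acetyltransferase, was at 30.8, 30.8, 32.6, 32.5 and 32.1 in Veh_PD1, against 22.02, 25.9, 21.6, 26.4 and 25.8 in Veh_IgG, again without overlap (log2 difference 0.38, SE 0.10). Crem, a cAMP-responsive transcription factor that activated lymphoid and myeloid cells induce, was at 47.3, 25.3, 37.5, 35.0 and 27.5 in Veh_PD1, against 20.2, 24.9, 17.6, 21.5 and 19.5 in Veh_IgG. Its lowest treated tumour, replicate 2, lay just above the highest control, and the log2 difference was 0.68 (SE 0.17). The stress-induced transcription factor Atf3 was at 181, 129.7, 192, 188 and 208 in Veh_PD1, against 97.2, 153, 101, 127 and 110.4 in Veh_IgG, and only replicate 2 fell inside the control range (log2 difference 0.61, SE 0.16). Klk1b1, a kidney kallikrein, was at 36.1, 56.3, 47.6, 94.8 and 39.2 in Veh_PD1, against 16.4, 24.9, 38.8, 16.6 and 16.9 in Veh_IgG (log2 difference 1.23, SE 0.28). Kallikreins are close copies of each other, so reads of Klk1b1 may have been divided among relatives.

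The genes with the smallest p among those lower in Veh_PD1 were Tbp, Ms4a7, Maf, Washc1, Uqcrfs1, Tpst2, Cd276, Cd248, Dhrs3 and Tuba1b. Tbp, the TATA-binding protein of the basal transcription machinery, was at 27.7, 47.0, 42.1, 34.8 and 36.1 rescaled TPM in Veh_PD1, against 58.9, 49.2, 56.6, 50.4 and 60.5 in Veh_IgG. Every treated tumour lay below every control, by a log2 difference of -0.56 (SE 0.14). Ms4a7, a membrane protein of macrophages, was at 24.0, 21.5, 20.2, 26.3 and 8.88 in Veh_PD1, against 41.6, 47.4, 31.4, 29.4 and 45.3 in Veh_IgG. Replicate 5 was far below the other treated tumours, the groups did not overlap, and the log2 difference was -0.97 (SE 0.25). Maf, a transcription factor of resident macrophages, was at 52.5, 78.2, 76.8, 77.9 and 64.4 in Veh_PD1, against 109, 90.9, 93.0, 96.3 and 89.5 in Veh_IgG, without overlap (log2 difference -0.46, SE 0.13). Cd248, endosialin of pericytes and stromal fibroblasts, was at 22.1, 34.4, 22.6, 35.1 and 31.6 in Veh_PD1, against 66.1, 37.8, 38.3, 41.0 and 70.2 in Veh_IgG. Its groups did not overlap either, although 3 controls lay within a few units of the highest treated tumour (log2 difference -0.75, SE 0.21). The checkpoint molecule Cd276, B7-H3, was at 11.4, 8.36, 6.43, 9.11 and 10.6 in Veh_PD1, against 19.4, 14.2, 10.9, 15.6 and 15.7 in Veh_IgG, and overlapped by 1 treated tumour and 1 control (log2 difference -0.67, SE 0.19). Uqcrfs1, the Rieske protein of respiratory complex III, was at 67.4, 69.0, 58.1, 62.5 and 57.9 in Veh_PD1, against 71.5, 82.1, 83.7, 84.3 and 80.3 in Veh_IgG. Tuba1b, an alpha tubulin, was at 461, 471, 429, 473 and 410.5 in Veh_PD1, against 602, 529.9, 624, 519 and 609 in Veh_IgG. Both were lower in every treated tumour than in every control, with log2 differences of -0.35 (SE 0.10) for Uqcrfs1 and -0.36 (SE 0.10) for Tuba1b.

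The interferon gamma list had the widest spread among the 5 treated tumours of the 44 lists with at least 4 tested members (SD of the list mean 1.08 in Veh_PD1). Its mean log2 level over 20 tested members was 5.79, 4.68, 3.87, 5.57 and 3.26 in Veh_PD1, against 4.12, 3.11, 4.04, 4.29 and 4.02 in Veh_IgG. Replicates 1 and 4 lay above every control for 20 of 20 members, replicate 2 for 12, replicate 3 for 2 and replicate 5 for none. Over all tested genes, the share above every control was 19.0% in replicate 1, 11.3% in replicate 2, 20.5% in replicate 3, 17.0% in replicate 4 and 17.4% in replicate 5. Replicate 5 lay below every control for 6 members, replicate 3 for 2 and replicate 2 for 1. The share of all tested genes below every control was 32.2% in replicate 1, 13.6% in replicate 2, 29.8% in replicate 3, 19.5% in replicate 4 and 22.5% in replicate 5. The lowest of the 10 list means were those of Veh_PD1 replicate 5 and Veh_IgG replicate 2, and these tumours also had the highest mean log2 levels of 6 tested erythroid markers, which were 5.03, 4.84, 4.40, 4.42 and 5.84 in Veh_PD1, against 4.90, 6.06, 5.33, 4.99 and 4.93 in Veh_IgG. The part of blood in the interferon gamma values was not tested. All 20 tested members had a higher mean in Veh_PD1, where 40.2% of all tested genes did, and the median log2 difference was 0.59 (range 0.11 to 1.69). The median stayed between 0.32 and 0.86 when any 1 library was left out. With only the libraries under 20% satellite-like TPM it was 0.35. The 3 members under the filter, Cxcl11, Gbp6 and Ido1, were low in all 10 libraries, with Ido1, an enzyme of tryptophan breakdown, at 2.21, 0.532, 0, 2.47 and 0 in Veh_PD1, against 0.145, 0, 0, 0.475 and 0 in Veh_IgG.

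Promoters of 4 immunity-related GTPases of the list are shown because they carry the sequence elements through which interferon gamma is known to act, side by side. The GAS element, TTCNNNGAA, is the gamma-activated site and the ISRE core, GAAANNGAAA, is bound by interferon regulatory factors, and both were searched on both strands of the RefSeq promoters of GRCm38.p6, from 250 bases before to 50 after each start. The windows below run 5′ to 3′ on the strand of the gene, with the bases of both elements in capitals.
Igtp, chr11:58199491-58199550, plus strand: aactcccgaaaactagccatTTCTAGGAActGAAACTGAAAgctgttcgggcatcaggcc
Irgm2, chr11:58214882-58214941, plus strand: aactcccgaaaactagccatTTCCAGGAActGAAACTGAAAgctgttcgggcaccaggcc
Tgtp1, chr11:48992295-48992354, minus strand: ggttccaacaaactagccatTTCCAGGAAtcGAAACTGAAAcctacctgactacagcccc
Tgtp2, chr11:49064254-49064313, minus strand: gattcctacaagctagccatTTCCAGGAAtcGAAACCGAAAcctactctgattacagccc
In all 4 the GAS is followed after 2 bases by the ISRE core, an arrangement noticed after the values were seen. It occurs for 5 of the 27025 genes with a promoter entry (0.0185%). A GAS was found for 9 and an ISRE core for 11 of the 15 tested list members with a promoter entry. Of all genes with an entry 9.55% held a GAS and 3.99% an ISRE core. Among the 9309 tested genes with an entry these shares were 8.44% and 3.86%. The list consists of known interferon gamma targets, so this describes the list and not these tumours.

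Gbp2 holds an ISRE core alone, read on the opposite strand, and Irf1 a GAS alone, and windows around them are given for comparison, again with the element in capitals.
Gbp2, chr3:142620584-142620643, plus strand: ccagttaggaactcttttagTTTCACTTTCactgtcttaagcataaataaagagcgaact
Irf1, chr11:53769904-53769963, plus strand: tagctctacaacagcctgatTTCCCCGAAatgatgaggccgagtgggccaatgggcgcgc
No match to either pattern was found in the window of Cxcl9, which says only that these letters are not in that window.

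Cxcl9, the ligand that draws CXCR3-bearing T cells, was at 66.8, 19.6, 2.95, 60.9 and 1.76 rescaled TPM in Veh_PD1, against 6.58, 1.08, 4.31, 6.53 and 3.33 in Veh_IgG. Replicates 1, 2 and 4 were above every control, while replicates 3 and 5 were inside the control range. The log2 difference was 1.69 (SE 0.84), and the SD was 2.17 among treated tumours, against 0.77 among controls. Iigp1, an immunity-related GTPase, was at 236, 53.7, 33.3, 147 and 3.21 in Veh_PD1, against 28.0, 2.93, 20.5, 25.3 and 17.8 in Veh_IgG, and so spanned the range from the highest to nearly the lowest of the 10 tumours within the treated group. The related Igtp was at 85.9, 42.4, 14.7, 80.1 and 9.33 in Veh_PD1, against 27.1, 11.5, 22.5, 19.7 and 21.2 in Veh_IgG. Here replicates 1, 2 and 4 exceeded every control, and replicates 3 and 5 were low (log2 difference 0.74, SE 0.53). Tgtp1 was at 53.04, 17.6, 6.52, 34.8 and 1.70 in Veh_PD1, against 7.94, 1.75, 8.03, 9.05 and 7.41 in Veh_IgG, and its near-identical neighbour Tgtp2 at 47.7, 18.1, 7.65, 32.9 and 1.30 in Veh_PD1, against 8.89, 2.72, 5.99, 9.18 and 8.403 in Veh_IgG. Reads may have been divided between these copies, so their values are not independent.

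Guanylate-binding proteins and the regulators of the pathway were ordered in much the same way. Gbp2 was at 110.0, 54.7, 28.4, 143 and 24.6 in Veh_PD1, against 39.8, 12.3, 38.4, 35.0 and 28.0 in Veh_IgG (log2 difference 0.98, SE 0.47). Gbp4, the list member with the smallest p, was at 23.8, 13.7, 11.1, 33.0 and 3.72 in Veh_PD1, against 6.84, 2.50, 6.24, 11.1 and 4.601 in Veh_IgG (log2 difference 1.14, SE 0.48). Replicate 5 had less of both than any other treated tumour. Irf1, the transcription factor that relays the signal, was at 104, 41.8, 46.4, 61.7 and 32.8 in Veh_PD1, against 37.0, 33.1, 27.9, 42.1 and 40.6 in Veh_IgG, with replicates 1, 3 and 4 above the control range (log2 difference 0.55, SE 0.25). Ciita, the master regulator of MHC class II, was at 13.7, 6.53, 2.07, 11.5 and 2.79 in Veh_PD1, against 2.16, 2.24, 1.66, 4.92 and 3.46 in Veh_IgG. Replicates 1, 2 and 4 were above all controls for Ciita (log2 difference 0.90, SE 0.44).

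**Figure D1:**
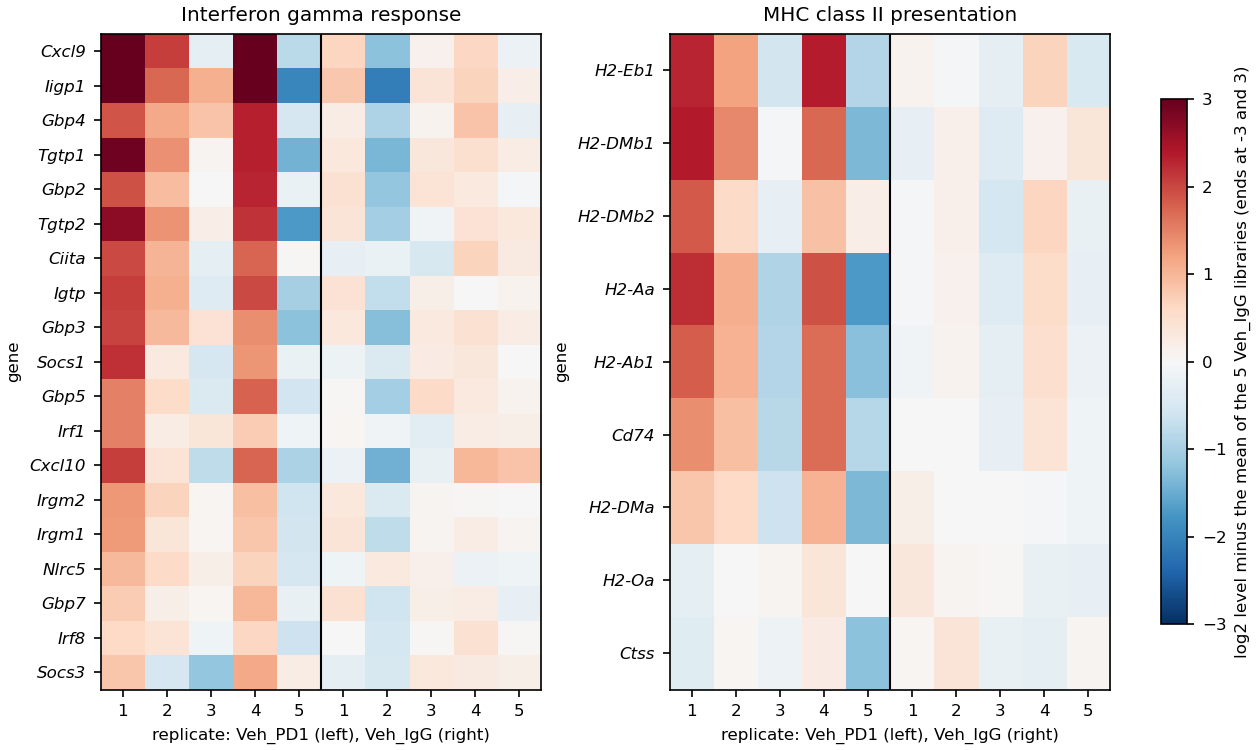
Levels of tested members of 2 lists in each tumour, as log2(rescaled TPM + 1) minus the mean of the 5 Veh_IgG libraries, with Veh_PD1 replicates left of the line and Veh_IgG replicates right of it. Veh_PD1 replicates 1 and 4 are red for nearly every gene, replicate 2 is paler, and replicates 3 and 5 are near white or blue.

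MHC class II presentation, the display of peptides to helper T cells by macrophages, dendritic cells and B cells, divided the treated tumours likewise. The mean log2 level of 9 tested members was 7.14, 6.56, 5.34, 7.12 and 4.86 in Veh_PD1, against 5.82, 5.90, 5.54, 6.06 and 5.67 in Veh_IgG. Of these members, 8 had a higher mean in Veh_PD1 and the median log2 difference was 0.48 (range -0.28 to 0.88), but 0.08 with only the libraries under 20% satellite-like TPM. Replicate 5 lay below every control for 7 of the 9 and replicate 3 for 5, while replicate 4 lay above every control for 8, replicate 1 for 7 and replicate 2 for 6. H2-Aa, the alpha chain of the class II molecule I-A, was at 488, 224, 55.4, 397 and 31.2 in Veh_PD1, against 100.4, 115, 80.4, 155 and 88.0 in Veh_IgG. The controls lay within a factor of about 2 of each other, and all 5 treated tumours fell outside them, 3 above and 2 below. Its SD on the log2 scale was 1.74 in Veh_PD1, against 0.37 in Veh_IgG, and the means differed by 0.52 (SE 0.64). H2-Eb1, the beta chain of I-E, was at 197, 92.2, 26.7, 208 and 21.04 in Veh_PD1, against 42.5, 38.7, 32.5, 63.5 and 28.8 in Veh_IgG, with the same 3 tumours above and the same 2 below. The peptide loading chain H2-DMb1 was at 57.6, 29.4, 9.77, 35.8 and 3.42 in Veh_PD1, against 8.46, 11.4, 7.61, 11.3 and 13.4 in Veh_IgG. For H2-DMa, its partner, the values were 84.3, 71.5, 30.3, 97.7 and 17.8 in Veh_PD1, against 53.3, 47.2, 46.6, 45.1 and 43.0 in Veh_IgG, so that a tight control group stood beside treated tumours on either side of it (log2 difference 0.10, SE 0.38). The sign of that difference turned when Veh_PD1 replicate 1, 2 or 4 was left out, at the lowest to -0.13. Ctss, the protease that trims the invariant chain, was the 1 member with a lower mean, at 393, 523, 455, 602 and 214 in Veh_PD1, against 525, 657, 433, 408 and 532 in Veh_IgG.

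MHC class I presentation, by which all nucleated cells show peptides to cytotoxic T cells, differed less between tumours. The mean log2 level of 18 members was 7.51, 7.22, 6.83, 7.46 and 6.996 in Veh_PD1, against 7.09, 6.82, 6.95, 7.07 and 6.98 in Veh_IgG. Of these, 15 had a higher mean in Veh_PD1, 3 at an unadjusted p under 0.05, where 40.2% and 1.90% of all tested genes did, and the median log2 difference was 0.22, against 0.00 with only the libraries under 20% satellite-like TPM. Psmb8, a catalytic subunit of the immunoproteasome, was at 282, 216, 237, 232 and 155 in Veh_PD1, against 155, 139, 154, 158 and 192 in Veh_IgG, and 4 of the 5 treated tumours lay above all controls (log2 difference 0.47, SE 0.15). Psmb9, another of these subunits, was at 186, 108, 60.7, 113 and 55.4 in Veh_PD1, against 60.1, 56.4, 72.0, 65.9 and 64.9 in Veh_IgG, with replicates 1, 2 and 4 above the controls and replicate 5 just below them. H2-T22, a nonclassical class I molecule, was at 93.1, 72.6, 70.02, 90.9 and 64.5 in Veh_PD1, against 61.0, 60.5, 58.2, 66.7 and 60.6 in Veh_IgG (log2 difference 0.33, SE 0.12). The class I genes H2-Q6 and its neighbours are near-identical copies, and H2-Q6, at 96.1, 59.7, 52.5, 78.8 and 49.8 in Veh_PD1, against 52.7, 40.7, 44.6, 52.3 and 43.7 in Veh_IgG, is uncertain for that reason.

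Type I interferon genes, the antiviral set, had a mean log2 level of 5.19, 4.93, 4.55, 5.05 and 4.40 in Veh_PD1, against 4.80, 4.33, 4.70, 4.81 and 4.93 in Veh_IgG. Of 27 tested members 17 had a higher and 10 a lower mean in Veh_PD1, none at an unadjusted p under 0.05, with a median log2 difference of 0.09 (between -0.00099 without Veh_PD1 replicate 1 and 0.18 without Veh_PD1 replicate 5, 0.05 with the libraries under 20% satellite-like TPM alone). Zbp1, a sensor of Z-form nucleic acids, had the largest SD of this list in Veh_PD1, with 106, 46.6, 30.2, 101 and 19.9 in Veh_PD1, against 34.2, 19.1, 30.5, 39.3 and 33.5 in Veh_IgG. Replicates 1, 2 and 4 lay above its control range and replicates 3 and 5 within it. By comparison Oas2, an oligoadenylate synthetase, varied little, at 24.6, 30.6, 25.8, 28.2 and 19.1 in Veh_PD1, against 14.6, 27.8, 20.1, 20.7 and 22.6 in Veh_IgG (log2 difference 0.28, SE 0.17).

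Among checkpoint genes, Cd274, which encodes PD-L1, was at 52.5, 21.2, 32.3, 45.2 and 36.5 in Veh_PD1, against 22.5, 19.8, 26.4, 25.1 and 19.96 in Veh_IgG. Replicates 1, 3, 4 and 5 were above every control and replicate 2 was within the control range, for a log2 difference of 0.64 (SE 0.21). Replicate 2 thus stood above the controls for Cxcl9 but not for Cd274, and replicate 5 for Cd274 but not for Cxcl9. Cd80, a costimulatory ligand of CD28 and CTLA4 that also binds PD-L1, was at 10.9, 6.75, 6.85, 16.2 and 6.81 in Veh_PD1, against 2.73, 7.42, 5.27, 8.32 and 5.64 in Veh_IgG (log2 difference 0.60, SE 0.30). Cd86, the other ligand of CD28, was at 26.2, 16.8, 16.5, 18.8 and 6.26 in Veh_PD1, against 11.5, 17.3, 13.2, 18.1 and 14.4 in Veh_IgG, and had the largest SD of the list in Veh_PD1 (log2 difference 0.07 (SE 0.29), and between -0.11 and 0.37 with any 1 library left out). Lgals9, galectin 9, was at 154, 169, 119, 209 and 171 in Veh_PD1, against 213, 193, 191, 193 and 188 in Veh_IgG (log2 difference -0.27, SE 0.13). Of 10 tested members 7 had a higher mean in Veh_PD1, with a median log2 difference of 0.08 (0.09 with the libraries under 20% satellite-like TPM alone). That median ran between -0.05 and 0.22 with any 1 library left out, and was under 0 without Veh_PD1 replicate 1 and without Veh_IgG replicate 2. Pdcd1, which encodes the target of the antibody, was under the filter and at 0, 1.30, 0.600, 2.89 and 0.787 rescaled TPM in Veh_PD1, against 0.456, 0.210, 0.232, 0.801 and 0.218 in Veh_IgG. Replicate 4 had the highest value of the 10 tumours.

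Genes of T cells were low in every tumour, and in bulk RNA fewer cells of a type cannot be told apart from less RNA per cell. The summed level of the 16 T cell markers was 132, 60.2, 49.7, 112 and 40.2 rescaled TPM in Veh_PD1, against 67.8, 54.0, 49.1, 58.7 and 66.5 in Veh_IgG. Replicate 1 held the highest value of the 10 tumours for 9 of the 16 markers and replicate 4 for 5. Cd3e, a chain of the T cell receptor complex, was at 7.69, 2.36, 1.15, 15.3 and 4.89 in Veh_PD1, against 1.98, 1.89, 1.16, 2.55 and 1.19 in Veh_IgG. Replicates 1, 4 and 5 were above all controls, replicate 2 was within their range and replicate 3 at its lower end (log2 difference 1.08, SE 0.49). Cd2, an adhesion receptor of T and NK cells, was at 11.1, 2.16, 3.33, 7.79 and 3.63 in Veh_PD1, against 1.84, 2.64, 1.29, 1.76 and 3.21 in Veh_IgG (log2 difference 0.92, SE 0.38). Only 6 of the 16 markers passed the filter, and their median log2 difference was 0.32, but -0.01 without Veh_PD1 replicate 4 and -0.01 with the libraries under 20% satellite-like TPM alone. Themis, a thymocyte signalling protein, made up much of the sum in the controls, at 29.6, 21.9, 20.6, 16.8 and 19.0 in Veh_PD1, against 34.1, 20.3, 23.2, 26.8 and 38.4 in Veh_IgG.

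All 13 markers of cytotoxic lymphocytes and NK cells were under the filter, and their summed level was 41.6, 8.59, 8.37, 23.6 and 10.6 rescaled TPM in Veh_PD1, against 3.90, 5.25, 6.73, 9.22 and 7.95 in Veh_IgG. Replicate 1 held the highest of the 10 values for 8 of them and replicate 4 for 2. Cd8a, the coreceptor of cytotoxic T cells, was at 5.69, 0.794, 0.541, 2.82 and 0.254 in Veh_PD1, against 1.15, 0.131, 0.645, 0.0792 and 0.137 in Veh_IgG. Gzmb, granzyme B, was at 2.44, 0.361, 0.668, 0.682 and 0.555 in Veh_PD1, against 0.475, 0.876, 0.323, 0.743 and 0.405 in Veh_IgG. Ifng itself was at 2.87, 0.292, 0.408, 0.844 and 0 in Veh_PD1, while all 5 Veh_IgG libraries list it at 0. These levels lie within a few units of the background of 1.07 rescaled TPM in replicate 1, and the summed level of 7 mast cell and basophil markers was also highest there, at 20.7, 2.26, 4.98, 10.3 and 6.38 in Veh_PD1, against 4.56, 1.27, 2.25, 8.17 and 3.26 in Veh_IgG. The part of that background in the lymphocyte values was not tested.

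**Figure D2:**
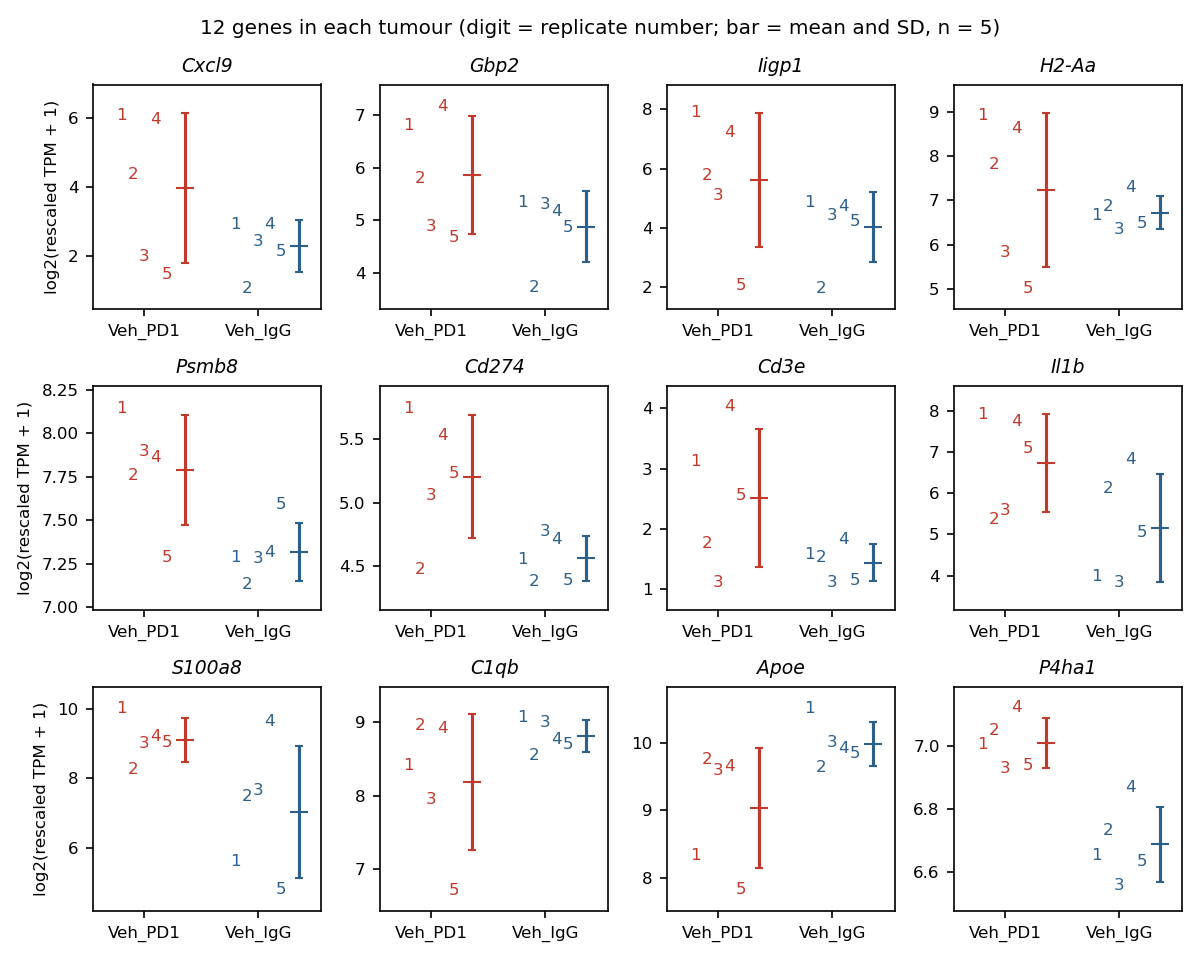
Levels of 12 genes in each tumour, as log2(rescaled TPM + 1), with Veh_PD1 in red at the left and Veh_IgG in blue at the right of each panel. Digits are replicate numbers and the bar is the mean and SD (n = 5). Replicates 1 and 4 of Veh_PD1 top the panels of Cxcl9, Gbp2, Iigp1, H2-Aa, Cd274, Cd3e and Il1b, and P4ha1 is the 1 panel shown without overlap.

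Macrophage genes ran the other way. Of 14 markers 12 had a lower mean in Veh_PD1, 5 at an unadjusted p under 0.05, where 59.8% and 2.96% of all tested genes did, and the median log2 difference was -0.51 (between -0.68 and -0.24 with any 1 library left out, -0.37 with the libraries under 20% satellite-like TPM alone). The mean log2 level was 5.997, 6.25, 5.89, 6.48 and 5.39 in Veh_PD1, against 6.68, 6.27, 6.50, 6.44 and 6.49 in Veh_IgG, so that replicate 4 was within the control range, replicate 2 just under it and replicate 5 lowest. Cd163, the haemoglobin scavenger receptor of resident-type macrophages, was at 9.11, 20.4, 32.1, 57.4 and 21.8 in Veh_PD1, against 48.4, 91.7, 67.8, 29.7 and 57.3 in Veh_IgG (log2 difference -1.18, SE 0.40). Trem2, a lipid receptor of tumour macrophages, was at 2.64, 8.06, 6.81, 5.996 and 8.32 in Veh_PD1, against 19.9, 7.11, 8.41, 10.6 and 17.1 in Veh_IgG (log2 difference -0.86, SE 0.32). The complement subunit C1qb was at 340.4, 495, 246, 483 and 104 in Veh_PD1, against 533, 373, 511, 434 and 414 in Veh_IgG, with replicates 2 and 4 inside the control range and the other treated tumours under it. Apoe, the lipid carrier that such macrophages make in bulk, was at 319, 859.6, 770.5, 799 and 226 in Veh_PD1, against 1457, 791, 1026, 967 and 918 in Veh_IgG (log2 difference -0.95, SE 0.35). Replicate 1 was low in Apoe, which is not among the 14 markers, and in Cd163 and Trem2, and replicate 4 was not low in Cd163. Of the 14 markers, replicate 1 lay below every control for 9 and above every control for 2. Replicate 5, the treated tumour lowest in interferon gamma genes, lay below for 12 and above for 1. Over all tested genes 32.2% lay below and 19.0% above in replicate 1, and 22.5% and 17.4% in replicate 5.

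Neutrophil genes had the largest median difference of the lists with at least 4 tested members. All 8 tested members of 12 had a higher mean in Veh_PD1, 4 of them at an unadjusted p under 0.05, where 40.2% and 1.90% of all tested genes did, and the median log2 difference was 1.07 (between 0.87 and 1.49 with any 1 library left out, 0.72 with the libraries under 20% satellite-like TPM alone). S100a8, a subunit of calprotectin, was at 1034, 305, 511, 590.2 and 519 in Veh_PD1, against 48.2, 177, 201, 794 and 27.2 in Veh_IgG. Its partner S100a9 was at 929.9, 277, 565, 892 and 778 in Veh_PD1, against 50.7, 235, 211, 839.9 and 37.6 in Veh_IgG. All treated tumours exceeded 4 of the 5 controls, and Veh_IgG replicate 4 stood among the treated tumours for both. The controls thus carried the wider spread, with a log2 SD of 0.63 in Veh_PD1, against 1.89 in Veh_IgG, for S100a8. Retnlg, a resistin-like protein of neutrophils, was at 129, 48.5, 78.1, 171 and 122 in Veh_PD1, against 13.7, 27.1, 40.5, 138 and 3.03 in Veh_IgG (log2 difference 2.03, SE 0.73). Mmp8, neutrophil collagenase, was at 16.1, 12.5, 23.6, 19.7 and 28.0 in Veh_PD1, against 5.07, 2.29, 11.5, 28.5 and 7.88 in Veh_IgG (log2 difference 1.14, SE 0.47). Stfa2l1, a stefin of the same cells, was at 67.2, 24.4, 62.0, 88.6 and 70.3 in Veh_PD1, against 3.16, 18.8, 23.3, 44.9 and 5.57 in Veh_IgG (log2 difference 2.03, SE 0.58). For these 3 genes, too, every treated tumour exceeded 4 of the 5 controls.

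Inflammatory cytokines and chemokines split again by tumour. Il1b, interleukin 1 beta, was at 237, 40.3, 46.8, 211 and 133 in Veh_PD1, against 14.9, 68.0, 13.3, 111 and 32.0 in Veh_IgG. Replicates 1, 4 and 5 were above every control, and replicates 2 and 3 were within the control range (log2 difference 1.57, SE 0.64). The neutrophil attractant Cxcl2 was at 164, 26.4, 28.7, 140.2 and 49.1 in Veh_PD1, against 15.4, 28.8, 31.4, 72.4 and 33.8 in Veh_IgG, and Ccl3, an attractant of T cells and monocytes, at 79.7, 21.8, 34.4, 167 and 83.9 in Veh_PD1, against 26.6, 37.3, 17.7, 65.3 and 23.7 in Veh_IgG. Nfkbia, the inhibitor that NF-kB induces against itself, was at 179.9, 107, 114, 251.8 and 175 in Veh_PD1, against 89.6, 107, 132, 138 and 86.3 in Veh_IgG. Replicates 1, 4 and 5 were the high treated tumours for these genes too, although Cxcl2 of replicate 5 was within the control range. Of the 20 tested NF-kB genes, replicates 1, 4 and 5 lay above every control for 9, 14 and 5, and below for 1, 0 and 8. Of the 19 tested chemokines, replicate 5 lay above for 2 and below for 6. Over all tested genes 17.4% lay above and 22.5% below in replicate 5. Csf2 and Acod1 were picked after their values were seen. Csf2, which encodes GM-CSF, was at 75.2, 15.0, 17.8, 64.2 and 9.16 in Veh_PD1, against 6.37, 15.9, 15.5, 11.98 and 9.36 in Veh_IgG, and the itaconate-producing enzyme Acod1 at 22.7, 2.25, 4.64, 30.0 and 6.98 in Veh_PD1, against 1.23, 3.15, 2.00, 8.41 and 2.45 in Veh_IgG, both highest in replicates 1 and 4. A lower mean in Veh_PD1 was seen for the acute phase gene Saa3, at 77.3, 164, 181, 243 and 107 in Veh_PD1, against 364, 369, 258, 179.9 and 239 in Veh_IgG (log2 difference -0.92, SE 0.29). Ccl5, the T cell chemokine with the largest SD of its list, was at 30.9, 5.65, 0.584, 5.09 and 8.11 in Veh_PD1, against 4.15, 5.09, 3.72, 9.72 and 9.89 in Veh_IgG, so that its high value stands on replicate 1 alone. Over the lists, 11 of 19 tested chemokines and 7 of 20 NF-kB genes had a higher mean in Veh_PD1, where 40.2% of all tested genes did. The median log2 difference was 0.04 for chemokines, between -0.05 and 0.51 with any 1 library left out, and -0.25 with the libraries under 20% satellite-like TPM alone. It was under 0 without Veh_PD1 replicate 1 or 4 and without Veh_IgG replicate 1. For NF-kB genes it was -0.07, between -0.18 and 0.07 with any 1 library left out, and -0.38 with the libraries under 20% satellite-like TPM alone. It was above 0 without Veh_PD1 replicate 3 or 5 and without Veh_IgG replicate 4.

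Hypoxia genes had a higher mean in Veh_PD1 for 14 of 15 tested members, with a median log2 difference of 0.31, but -0.04 with the libraries under 20% satellite-like TPM alone. The mean log2 level was 7.50, 6.91, 6.99, 7.33 and 7.85 in Veh_PD1, against 6.87, 7.29, 6.83, 7.12 and 6.83 in Veh_IgG, highest in replicate 5, where 8 members lay above every control. Higd1a, a mitochondrial protein that hypoxia induces, was at 197, 113, 157, 121 and 164 in Veh_PD1, against 81.0, 167, 80.3, 96.9 and 71.3 in Veh_IgG (log2 difference 0.64, SE 0.22). Adm, adrenomedullin, was at 184, 55.7, 109, 105 and 221 in Veh_PD1, against 63.6, 131, 54.3, 99.9 and 90.3 in Veh_IgG, with replicates 1 and 5 above the control range. Glycolytic enzymes were above every control for 14 of 17 members in replicate 5 and 10 in replicate 4, and below every control for 13 in replicate 3. Their mean log2 level was 8.37, 8.04, 7.73, 8.52 and 8.75 in Veh_PD1, against 8.31, 8.29, 7.96, 8.20 and 8.09 in Veh_IgG. Pgk1, phosphoglycerate kinase, was at 854, 651, 708, 657 and 878 in Veh_PD1, against 620.4, 759.8, 529.9, 583 and 575 in Veh_IgG (log2 difference 0.29, SE 0.14).

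Proliferation genes were slightly lower in the treated tumours. All 20 mitosis genes had a lower mean in Veh_PD1, with a median log2 difference of -0.24 (between -0.38 and -0.14 with any 1 library left out), but 0.02 with the libraries under 20% satellite-like TPM alone. For DNA replication it was 19 of 20 genes with a median of -0.22 (-0.17 with the libraries under 20% satellite-like TPM alone). Ccnb2, a mitotic cyclin, was at 65.5, 69.9, 57.6, 67.0 and 47.3 in Veh_PD1, against 91.4, 62.7, 74.1, 80.3 and 97.7 in Veh_IgG (log2 difference -0.39, SE 0.14). Mcm5, a helicase subunit of replication forks, was at 75.7, 88.7, 58.7, 65.5 and 65.0 in Veh_PD1, against 98.4, 66.6, 93.7, 91.0 and 107 in Veh_IgG. Replicate 2 was the treated tumour closest to the controls for both. Cholesterol synthesis had a lower mean for 17 of 17 enzymes (median -0.20, but -0.39 with the libraries under 20% satellite-like TPM alone), with Mvk, mevalonate kinase, at 16.8, 16.2, 13.6, 18.9 and 13.6 in Veh_PD1, against 18.0, 20.5, 17.9, 20.3 and 22.8 in Veh_IgG. Ribosomal protein genes had a higher mean for 18 of 20 (median 0.15, but 0.36 with the libraries under 20% satellite-like TPM alone, and 0.06 without Veh_PD1 replicate 3). Smarcb1 RNA, of the subunit that renal medullary carcinoma typically lacks, was at 65.2, 66.6, 46.8, 81.9 and 69.2 in Veh_PD1, against 108, 69.7, 80.8, 87.8 and 88.6 in Veh_IgG (log2 difference -0.40, SE 0.15). It exceeded the median tested gene, at 31.7 to 34.0 in Veh_PD1 and 32.9 to 34.9 in Veh_IgG, in all 10 tumours, and gene values do not show which exons, or which cells, the RNA came from. The renal lineage factor Pax8, picked after its values were seen, was at 129, 171, 169, 203 and 211 in Veh_PD1, against 139, 154, 171, 128 and 122 in Veh_IgG. The epithelial keratin Krt8 was at 492, 512, 368, 591 and 739 in Veh_PD1, against 860.5, 404, 734, 579 and 898 in Veh_IgG. Krt19, a keratin of the same list, was lower than Krt8 in all 10 tumours. Which cells the Pax8 and keratin RNA came from was not tested. Over 18 tested SWI/SNF subunits 16 had a lower mean in Veh_PD1, with a median of -0.12 (-0.15 with the libraries under 20% satellite-like TPM alone).

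Stromal and kidney genes separated tumours within both groups. All 19 collagen and matrix genes had a lower mean in Veh_PD1, with a median log2 difference of -0.57 (between -0.90 and -0.32 with any 1 library left out, -0.80 with the libraries under 20% satellite-like TPM alone), and 18 of the 19 also had the larger SD in Veh_IgG. Their mean log2 level was 4.22, 4.06, 3.71, 5.04 and 3.80 in Veh_PD1, against 5.90, 3.24, 3.93, 5.62 and 5.41 in Veh_IgG, so that 2 of the controls were as low as the treated tumours. Postn, periostin of activated fibroblasts, was at 7.48, 5.23, 4.48, 15.9 and 4.82 in Veh_PD1, against 32.5, 7.36, 6.04, 25.3 and 32.4 in Veh_IgG (log2 difference -1.19, SE 0.48). Col1a1, a chain of type I collagen, was at 14.2, 17.0, 12.4, 57.6 and 12.7 in Veh_PD1, against 160.1, 5.87, 12.3, 99.5 and 71.0 in Veh_IgG. Replicate 4 was the treated tumour nearest to the 3 higher controls. The water channel Aqp1, of proximal tubule and endothelium, was at 7.98, 5.50, 4.90, 37.8 and 5.58 in Veh_PD1, against 63.3, 31.1, 13.8, 24.9 and 42.5 in Veh_IgG (log2 difference -1.72, SE 0.51). The summed level of the 16 genes of the proximal tubule list was 113, 159, 80.1, 139 and 36.03 in Veh_PD1, against 78.5, 48.7, 389.9, 871 and 60.5 in Veh_IgG. That list also holds Umod, a gene of the thick ascending limb. Veh_IgG replicates 3 and 4 were far above every other tumour in this sum.

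**Figure D3:**
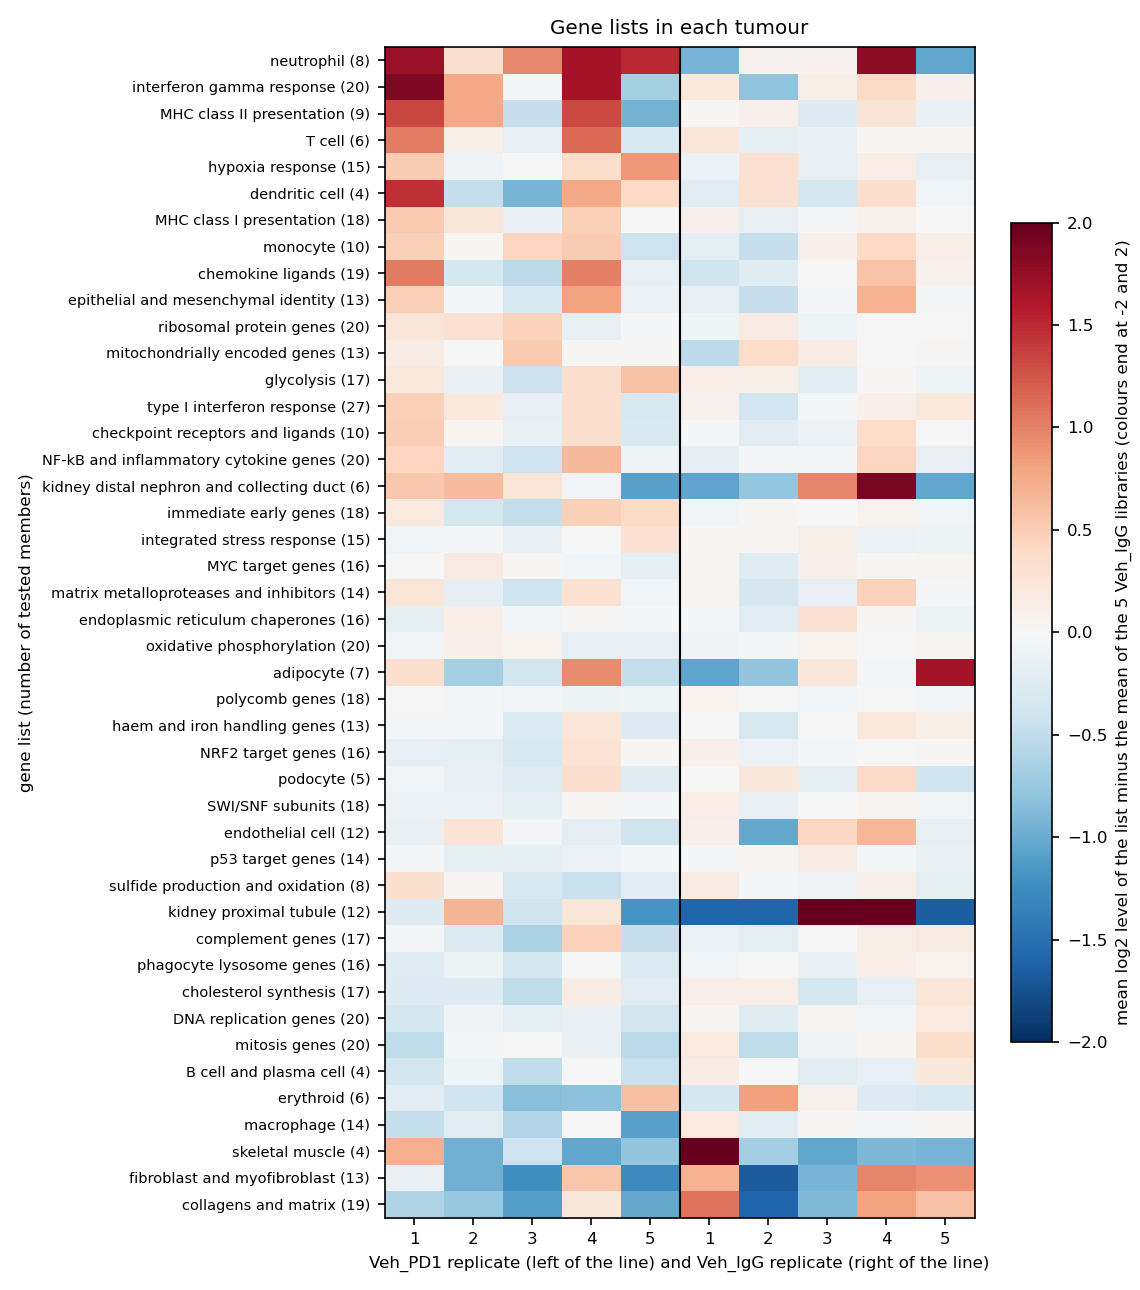
Mean log2(rescaled TPM + 1) of each gene list with at least 4 tested members in each tumour, minus the mean of the 5 Veh_IgG libraries, ordered by the difference of the group means. The neutrophil list is at the top and the collagen list at the bottom, and in the interferon gamma row Veh_PD1 replicates 1 and 4 are dark red while replicates 3 and 5 are near white or blue.

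For most genes the treated tumours differed more among themselves than the controls did. The median SD of a gene on the log2 scale was 0.286 in Veh_PD1, against 0.214 in Veh_IgG, and the SD was the larger one in Veh_PD1 for 8049 genes (68.0%). It stayed between 0.258 and 0.305 in Veh_PD1 when any 1 treated library was left out. An SD over 2-fold larger was found for 2646 genes in Veh_PD1, against 754 genes in Veh_IgG. Genes with an SD over 1 were nearly as many in both groups, 344 in Veh_PD1 and 322 in Veh_IgG. A limma fit of the absolute deviations from the group mean called 2 genes (0.0169%), and both had the smaller spread in Veh_PD1. One of them was Umod, uromodulin of the thick ascending limb, which was at 13.9, 29.5, 13.7, 14.2 and 0.286 in Veh_PD1, against 0.0835, 0, 43.1, 199 and 0 in Veh_IgG (adjusted p = 0.0189). Both calls rest on Veh_IgG replicates 3 and 4, and without either library neither gene was called. Umod also lost its call without Veh_PD1 replicate 1, 2 or 3 (limma adjusted p = 0.0577, 0.0624 and 0.0608). By limma no gene was called for a wider spread in Veh_PD1 (1134 at an unadjusted p under 0.05), and on simulated data this fit gave more small unadjusted p than its level, so the spread is described by SDs and not by such counts.

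The genes with the largest SD in Veh_PD1 were Sprr2f, Sult1d1, Iigp1, Klk1, Krt19, Cxcl9, Cfd, Actc1, Psca and Cox7a1. Sprr2f, a small proline-rich protein of epithelia, was at 18.3, 0.336, 0.960, 112 and 0 in Veh_PD1, against 0, 2.53, 0, 12.9 and 0.584 in Veh_IgG (SD 2.95 in Veh_PD1 and 1.60 in Veh_IgG on the log2 scale). The ductal keratin Krt19 was at 7.64, 1.74, 2.56, 105 and 2.48 in Veh_PD1, against 2.43, 0.525, 0.968, 7.36 and 2.82 in Veh_IgG, and Psca, a surface protein of urothelium and other epithelia, at 15.9, 0.218, 6.12, 57.0 and 3.12 in Veh_PD1, against 1.16, 0, 1.77, 1.03 and 3.34 in Veh_IgG. These 3 epithelial genes were all highest in replicate 4. Actc1, cardiac actin, was at 54.1, 1.29, 0.332, 1.32 and 4.31 in Veh_PD1, against 3.08, 0, 0.313, 1.08 and 0.393 in Veh_IgG, high in replicate 1. Sult1d1, a sulfotransferase, was at 3.36, 35.99, 159, 2.26 and 7.63 in Veh_PD1, against 0.267, 1.80, 42.8, 66.8 and 1.63 in Veh_IgG, high in replicate 3. Cfd, adipsin of fat cells, was at 15.2, 0.200, 0.904, 37.2 and 1.86 in Veh_PD1, against 0.534, 0.985, 4.33, 2.35 and 82.4 in Veh_IgG, high in replicates 1 and 4 among the treated and in replicate 5 among the controls. Cox7a1, a cytochrome oxidase subunit, is listed at 0 in replicate 1, with 0, 20.3, 11.5, 27.7 and 29.4 in Veh_PD1, against 16.6, 46.5, 14.1, 23.4 and 13.3 in Veh_IgG.

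**Figure D4:**
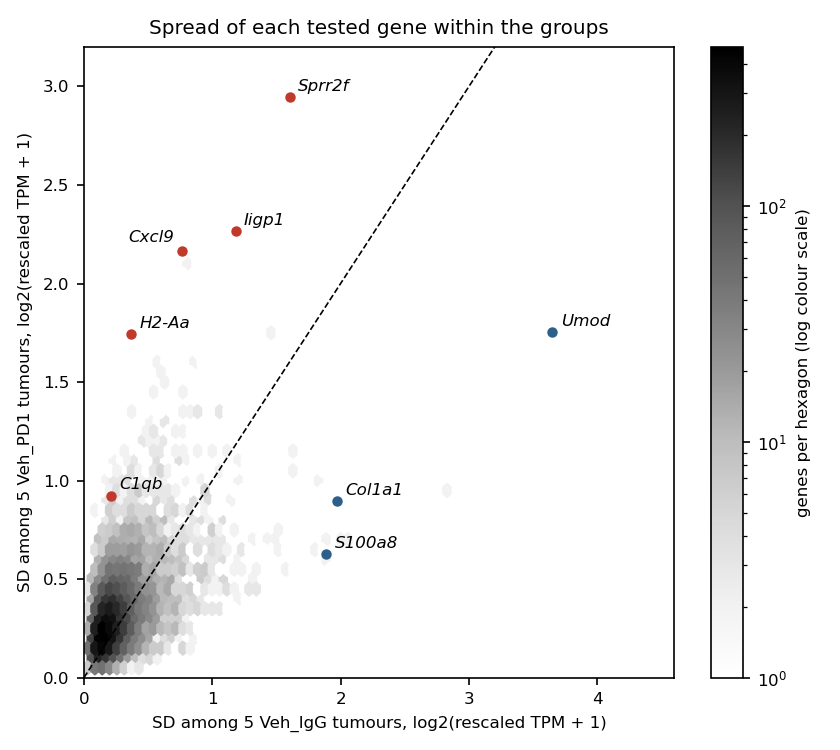
SD of log2(rescaled TPM + 1) of each of the 11834 tested genes among the 5 Veh_PD1 tumours (vertical) against the SD among the 5 Veh_IgG tumours (horizontal), with the count of genes per hexagon in grey and the dashed line of equal SD. Red points are named genes with the larger SD in Veh_PD1, such as Cxcl9 and H2-Aa, and blue points those with the larger SD in Veh_IgG, such as Umod and Col1a1.

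Each treated tumour was then set against the range of the 5 controls, over 11021 genes with a mean of at least 5 rescaled TPM over the 10 libraries. Replicate 1 had 135 genes more than 1 log2 unit above that range and 41 as far below it. In replicate 2 there were 4 above and 7 below, in replicate 3 there were 24 above and 12 below, in replicate 4 there were 64 above and 28 below, and in replicate 5 there were 29 above and 73 below. The same count for each control against the other 4 gave 2 to 115 genes on one side, with 108 above in Veh_IgG replicate 4 and 115 below in Veh_IgG replicate 2, so single controls stood as far apart as the treated tumours. A range of 4 tumours is narrower than one of 5, which raises the counts for the controls.

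Replicate 1 was led by Actc1, Cxcl9, Iigp1, Gfra4, Tmem145, Tgtp1, Tgtp2 and Pla2g1b, the 8 genes furthest above the controls. Gfra4, a receptor for the neurotrophic factor persephin, was at 46.5, 1.94, 1.21, 11.5 and 10.1 in Veh_PD1, against 3.48, 4.55, 5.16, 5.37 and 3.04 in Veh_IgG, and Tmem145 at 24.7, 3.61, 1.29, 8.75 and 5.80 in Veh_PD1, against 1.36, 3.08, 2.54, 1.68 and 0.930 in Veh_IgG. Interferon targets stand here beside genes that no fixed list holds, in the library with the lowest coding share and the highest background.

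Replicate 2 was the treated tumour nearest to the controls, with a median absolute log2 difference from the control mean of 0.149, where the other treated tumours had 0.190 to 0.289. Each control, set against the mean of the other 4, had 0.143 to 0.247, so replicates 4 and 5 were within the control range too. The leading genes of replicate 2 were Cxcl9, H2-DMb1, Klra2, Hist1h2ba, Hsph1, Iigp1, Tgtp2 and Tmod4, of which 4 belong to the interferon gamma or MHC class II lists. These 8 were picked by their excess over the controls, and the part of library content in that excess was not tested. Hsph1, a heat shock protein, was at 68.5, 154, 90.0, 103 and 69.6 in Veh_PD1, against 78.6, 43.7, 76.7, 65.8 and 78.4 in Veh_IgG. Klra2, a lectin-like receptor of the Ly49 family, was at 23.4, 15.7, 10.2, 11.5 and 3.84 in Veh_PD1, against 6.16, 4.76, 4.26, 7.04 and 2.99 in Veh_IgG, and its family members are close copies.

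Replicate 3 was led by Sult6b1, Hspe1, Minos1, Sult1d1, Rpl35a, Lsm7, Smim11 and Rps27rt, of which several encode short ribosomal, mitochondrial or RNA-binding proteins. Hspe1, the mitochondrial co-chaperonin, was at 592, 464, 894, 208 and 194 in Veh_PD1, against 233, 329, 287, 332 and 317 in Veh_IgG, and Minos1, of the mitochondrial inner membrane, at 225, 155, 345, 85.9 and 116 in Veh_PD1, against 88.6, 131, 116, 121 and 142 in Veh_IgG. Genes above all controls in replicate 3 had a median transcript length of 1712 bases, against 2062 for all tested genes, and those below all controls 2227. In replicate 1 these medians were 1571 above and 2520 below, and in replicate 2 they were 1486 above and 2522 below. Replicates 4 and 5 ran the other way, with 2112 above and 1779 below in replicate 4, and 2203 above and 1773 below in replicate 5. The part of transcript length in the ribosomal and mitochondrial values was not tested.

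Replicate 4 was led by Psca, Krt19, Cxcl9, Sprr2f, Fmo5, Iigp1, Immp2l and Upp2, which joins epithelial genes to the interferon targets. Fmo5, a flavin-containing monooxygenase, was at 8.79, 2.92, 3.84, 37.3 and 4.37 in Veh_PD1, against 5.06, 2.90, 3.45, 4.62 and 2.81 in Veh_IgG, and Upp2, a uridine phosphorylase, at 11.2, 4.87, 6.99, 26.4 and 12.4 in Veh_PD1, against 5.27, 3.72, 5.16, 4.52 and 5.67 in Veh_IgG. It also had the most collagen and the most Cd3e of the treated tumours.

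Replicate 5 was led by Amn, Tnfrsf25, Fos, Upp2, Ccdc171, Slc25a42, Fetub and Trim63. Fos, an immediate early transcription factor, was at 78.7, 22.6, 30.7, 62.6 and 122 in Veh_PD1, against 35.7, 54.9, 38.0, 44.9 and 38.6 in Veh_IgG, and Tnfrsf25, a death receptor of T cells, at 14.8, 8.38, 6.12, 4.19 and 15.6 in Veh_PD1, against 2.81, 4.38, 0.475, 4.61 and 3.12 in Veh_IgG. This tumour combined the lowest interferon gamma, MHC class II and macrophage means of the treated group with the highest hypoxia and glycolysis means.

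**Figure D5:**
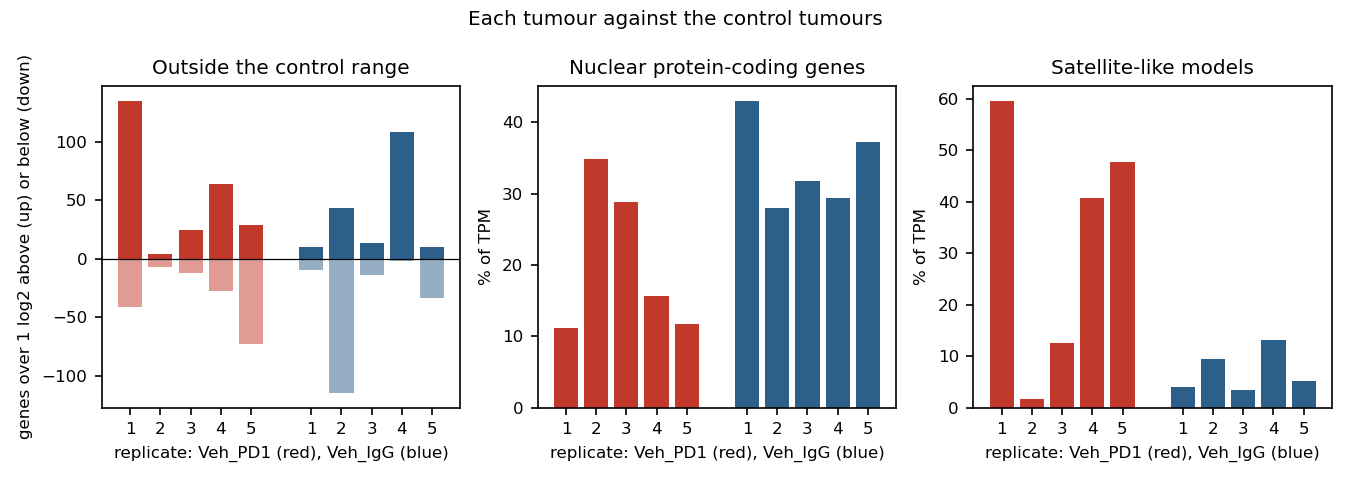
For each tumour, with Veh_PD1 in red and Veh_IgG in blue, the number of genes over 1 log2 unit above (up) or below (down, pale) the range of the controls, the percentage of TPM in nuclear protein-coding genes, and the percentage in satellite-like models. Controls were set against the other 4 controls, and Veh_PD1 replicates 1, 4 and 5 have the smallest coding shares and the largest satellite-like shares.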

How the data were processed

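The deposited table holds log2 TPM (transcript abundance) of 34234 genes in 20 libraries, 1 per tumour in 4 groups of 5, with 0 TPM written as -8.879. RNA was extracted with QIAzol and 1.0 ug per library was made into Nextera XT libraries, per the labels' protocols. Per the submitters' processing notes, the authors used Salmon 0.14.1, HTSeq 0.11.0, fastp, cutadapt and the mm10 build; which step made the TPM is not given in the sources used here, nor is any batch.

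Gene names were matched to GENCODE M21 (33928 genes, 19770 protein-coding). Values were returned to TPM and rescaled so that 18705 nuclear protein-coding genes sum to 1000000 in each library, without 13 models that share short sequence words with major satellite and 1101 olfactory and vomeronasal receptors. The 11834 protein-coding genes that reached 1 TPM in 5 or more of the 20 libraries were tested. Because the values are not counts, log2(rescaled TPM + 1) was fitted with limma 3.58.1 in R 4.3.3 (trended empirical Bayes, Benjamini-Hochberg adjustment, threshold 0.05) over the 10 libraries. Differences on this scale understate the change of low genes. Spread was fitted by limma on absolute deviations from the group mean. Both fits were tested on simulated data. Shares of TPM were compared by exact permutation over the 252 splits of 5 against 5, which allow no p under 0.00794. TPM carry no depth, so no counting interval is given.

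Replicates are separate tumours per the labels, numbered there within each group. The members and the gene lists were chosen with earlier results of these data known, so no list was tested. Named genes are the 10 with the smallest p in each direction with a mean of at least 5 rescaled TPM in a group, up to 4 members with the smallest p and the one with the largest SD of each list described, the 10 largest SDs in Veh_PD1, the genes of smallest p in the fit of spread, the 8 genes furthest above the controls in each treated tumour, and 8 genes always named (Pdcd1, Cd274, Smarcb1, Cxcl9, Ifng, Cd3e, Cd8a, Gzmb). Igtp, Irgm2, Csf2, Acod1 and Pax8, and Cxcl11, Gbp6 and Ido1 under the filter, fall outside this rule and were named after their values were seen. Some genes that the rule names are not reported here. Alternatives covered the scaling, the pseudocount, the filter, the libraries entered, a replicate block, library weights and the coding share as a covariate.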

Additional observations from a re-analysis of the deposited data

Results flagged for a closer look

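Each set of 5 tumours held a named gene, a list mean or a measure of library content, such as the satellite-like share, in 1 group. Of 324 sets, 19 had a lowest or highest tumour set apart from the others by more than 0.71 of the whole range (Dixon's 95% value). Chance flags about 1 set in 20. All values here are log2(rescaled TPM + 1), and the range of the other 4 tumours of the same group follows each value.

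Among treated tumours, replicate 1 had Cox7a1, a cytochrome oxidase subunit, at 0 (others 3.65 to 4.92). Replicate 2 had the neutrophil stefin Stfa2l1 at 4.67 (others 5.98 to 6.49), the lowest of its group. Replicate 4 was set apart by the collagen chain Col1a1 at 5.87 (others 3.74 to 4.17) and the water channel Aqp1 at 5.28 (others 2.56 to 3.17), both high. Replicate 5 was low in the macrophage gene Ms4a7 at 3.31 (others 4.40 to 4.77), in the tubule gene Umod at 0.36 (others 3.88 to 4.93) and in the testis-type histone gene Hist1h2ba at 0 (others 2.92 to 3.92).

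Among controls, Veh_IgG replicate 2 was the low tumour for interferon gamma targets, with a list mean of 3.11 (others 4.02 to 4.29), Iigp1 at 1.97 (others 4.23 to 4.86) and Tgtp1 at 1.46 (others 3.07 to 3.33), and for MYC target genes, with a list mean of 6.74 (others 6.99 to 7.08). Without that control, the median log2 difference of the interferon gamma list was 0.48. Veh_IgG replicate 4 was high in NF-kB and inflammatory cytokine genes, with a list mean of 5.92 (others 5.30 to 5.46), and in Dhrs3 at 5.87 (others 5.21 to 5.31), and it had Hist1h2ba at 0 (others 2.22 to 2.88). Veh_IgG replicate 1 had a mean of 6.45 (others 1.88 to 2.23) for skeletal muscle markers and 7.74 (others 7.56 to 7.6) for Lgals9. Veh_IgG replicate 3 was high in the tyrosine sulfotransferase Tpst2 at 6.21 (others 5.90 to 5.98), and low in Tnfrsf25 at 0.56 (others 1.93 to 2.49) and the tropomodulin Tmod4 at 0.82 (others 2.13 to 2.66).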

How the results depend on the processing

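The call of no gene between Veh_PD1 and Veh_IgG held in 21 of 22 alternatives, and deposited TPM without rescaling gave 54 genes. The 2 genes called for spread became 0 with each library's median subtracted, 3920 on deposited TPM, 4 after quantile normalization, 0 with a pseudocount of 5, 418 with no filter on low values, 1 with a filter of 5 rescaled TPM, and 0 to 8 with any 1 library left out (0 without Veh_IgG replicate 3); the causes were not tested. Replicate numbers did not pair the tumours: same-numbered deviations correlated at -0.190 to 0.103 and for 0 of 5 numbers was a tumour's own partner its best match, and with the numbers as a replicate block 0 genes were called. With any 1 library left out, the satellite-like share differed by 18.6 to 33.0 percentage points and the nuclear protein-coding share by -17.0 to -11.1, the p falling under the threshold without Veh_PD1 replicate 2 alone.

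Of 720 list medians under alternatives, 711 moved by less than the SD of the list mean among the Veh_PD1 tumours. That margin is wide, and a median can lose most of its size within it. For MHC class II the SD was 1.05, and the median went from 0.48 to 0.08 with the libraries under 20% satellite-like TPM. The fit of all 20 libraries and the replicate block leave the medians unchanged by design. With only the libraries under 20% satellite-like TPM, chosen after seeing the data, the median was 0.0791 for endoplasmic reticulum chaperones, -0.43 for immediate early genes and -0.14 for p53 targets. With medians subtracted it was -0.0015 for polycomb genes and 0.70 for proximal tubule markers. With any 1 library left out it ranged from -0.0821 to -0.00825 for polycomb genes, -0.43 to -0.0634 for podocyte markers and -0.85 to 0.45 for skeletal muscle markers, positive without Veh_IgG replicate 1. The main medians were -0.0405 for endoplasmic reticulum chaperones, 0.0046 for immediate early genes, -0.0461 for p53 targets and -0.0496 for polycomb genes. For markers they were -0.14 for proximal tubule, -0.35 for podocytes and -0.50 for skeletal muscle.

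Of 1808 log2 differences of 113 named genes under alternatives, 1768 kept their direction, and 21 genes reversed at least once. The fit of all 20 libraries and the replicate block cannot change a difference in this balanced design. Their share of the 1768 was therefore fixed in advance. With only the libraries under 20% satellite-like TPM, the reversed differences were H2-DMa -0.00803, Cd3e -0.0105, Ccl3 -0.16, Ccl5 -1.12, Cxcl2 -0.22, Adm -0.10, Krt19 -0.0306, Sprr2f -0.56, Gfra4 -1.04, Fmo5 -0.11, Fos -0.65, Fetub -0.0137, Immp2l -0.15, Pla2g1b -0.45, Batf3 -0.65, Ctsc 0.0672. With medians subtracted they were Ccl5 -0.12, Pla2g1b -0.32, with a pseudocount of 0.1 Ccl5 -0.13, and with a pseudocount of 5 Umod -0.00288. With any 1 library left out, differences of both signs were seen for H2-DMa (-0.13 to 0.46), Cd86 (-0.11 to 0.37), Ccl5 (-0.52 to 0.57), Cfd (-0.75 to 0.95), Cox7a1 (-1.19 to 0.0419), Sult6b1 (-0.17 to 0.70), Ctsc (-0.29 to 0.29). Depth cannot be assessed from TPM, and genes near 1 rescaled TPM lie close to the background of Veh_PD1 replicate 1.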

Other observations

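Antigen-presenting and blood cell markers outside the groups described so far also ordered the treated tumours. The 4 tested dendritic cell markers had a mean log2 level of 4.26, 2.33, 1.88, 3.57 and 3.2 in Veh_PD1, against 2.59, 3.11, 2.45, 3.14 and 2.75 in Veh_IgG, highest in Veh_PD1 replicate 1 and lowest in Veh_PD1 replicate 3. Batf3, a transcription factor of cross-presenting dendritic cells, was at 19.9, 1.34, 1.66, 10.7 and 3.43 rescaled TPM in Veh_PD1, against 0.692, 6.32, 2.08, 5.20 and 2.82 in Veh_IgG, with Veh_PD1 replicates 1 and 4 above every control (log2 difference 0.58, SE 0.62). The median log2 difference of the 4 markers was 0.28, but -0.10 without Veh_PD1 replicate 1 and -0.62 with the libraries under 20% satellite-like TPM alone. Monocyte markers had a mean log2 level of 5.61, 5.16, 5.56, 5.64 and 4.71 in Veh_PD1, against 4.95, 4.67, 5.22, 5.53 and 5.26 in Veh_IgG, and replicate 5 was the low treated tumour. Ms4a4c, a gene of Ly6C-high monocytes that interferon induces, was at 34.5, 16.5, 16.1, 14.1 and 1.79 in Veh_PD1, against 9.04, 3.09, 8.42, 8.02 and 17.5 in Veh_IgG. The 10 monocyte markers had a higher mean in Veh_PD1 for 6 and a lower one for 4, unlike the macrophage list, in which 12 of 14 were lower. No test of that contrast was made.

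Lysosomal genes of phagocytes had a lower mean in Veh_PD1 for 13 of 16 (median log2 difference -0.11, but -0.24 with the libraries under 20% satellite-like TPM alone). Complement genes had a lower mean for 14 of 17 (median -0.16, between -0.28 and -0.08 with any 1 library left out, -0.39 with the libraries under 20% satellite-like TPM alone). Ctsc, the protease that activates granule enzymes, had the largest SD of the lysosomal genes in Veh_PD1, at 279.9, 247, 119, 194 and 56.3 in Veh_PD1, against 172, 113, 130.5, 227 and 205 in Veh_IgG. Replicates 1 and 2 exceeded every control, and replicate 5 had the lowest value of the 10 tumours. The beta globin gene Hbb-bs, a measure of blood in the tissue, was at 257, 243, 155, 193 and 676 in Veh_PD1, against 203, 691, 336, 288 and 289 in Veh_IgG, high in Veh_PD1 replicate 5 and Veh_IgG replicate 2, the tumours with the lowest interferon gamma means, and within the control range or under it in the other treated tumours. Hbb-bs and its neighbours are near-identical copies, so its reads may have been divided among them.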
